A study of Mus musculus with 14 samples.

Results

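The genes described here encode the nuclear part of oxidative phosphorylation, the machinery by which mitochondria make most of the ATP of a cell. They were taken by symbol, as a written list of subunits of the respiratory chain and of ATP synthase, and not by a cut on their level, though the list was drawn up with earlier results of these cells known. All 56 listed genes were found among the 35271 Ensembl genes measured. They comprised 25 subunits of complex I, 4 of complex II, 7 of complex III, 11 of complex IV, 8 of ATP synthase (complex V) and Cycs, which encodes cytochrome c. Further nuclear subunits of complexes I, III and V were not in this list and are described below. They were measured in 14 single mesangial cells, the contractile cells that make the supporting matrix and hold the capillaries of the kidney glomerulus together. The cells came from the glomeruli of 1 male wild-type mouse of 8 weeks, C57BL/6 in the design text and spelled C56BL/6 in the strain label, with no treatment named. Beads and a magnet were used to collect the glomeruli, enzymes to release the cells, and a Fluidigm C1 instrument to trap each cell in its own chamber and make its cDNA. All cells form 1 group from 1 animal, so every value describes these cells, SDs are over cells, and no test between conditions was possible. The cells are called by their titles, GL_M_ and a number.

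In the respiratory chain, complex I takes electrons from NADH and complex II takes them from succinate, and both pass them to ubiquinone. Complex III moves them on to cytochrome c, and complex IV hands them to oxygen. Complexes I, III and IV pump protons as they do so, and ATP synthase lets the protons flow back to make ATP. Complex II is made from nuclear genes alone, while the other complexes combine nuclear subunits with a few that the mitochondrial genome encodes.

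The measured unit is RPKM, the reads on a gene divided by its length and by the read total of the cell, so levels of different genes are per length. A gene was counted as detected at an RPKM of at least 1, and a second, stricter level of 10 was used beside it. Mean levels are on the log2(RPKM + 1) scale, which compresses low values. The cells had 6.60 to 23.8 M reads (median 9.75 M), recovered from the steps between low values, and at these depths 3 reads on 1 kb of transcript equal an RPKM of 0.126 to 0.455. Each cell had 6 to 8 of 9 mesangial markers at 10 or more, and Tbx18 was at 0 in all cells. GL_M_55 and GL_M_30 stood apart by markers of neighbouring cell types. GL_M_55 had 5 of 10 podocyte markers at 10 or more, Wt1 and Synpo among them, with a summed RPKM of 2178. The other cells had 0 to 2 such markers and sums of 0.427 to 516. In GL_M_55, 4 of the 10 were at 0, Nphs1 and Ptpro among them. GL_M_30 had 10 of 13 endothelial markers at 10 or more, with a summed RPKM of 4128, against 0 to 5 markers and sums of 8.34 to 2075 in the other cells, and 1 of the 13 was at 0 in it. GL_M_55 also carried 7 mesangial markers and GL_M_30 carried 6. GL_M_85 had 1 of 7 macrophage and leukocyte markers, Fcer1g, at 10 or more, with a summed RPKM of 923, against at most 6.44 in the other cells, and Tyrobp, Cd68, Adgre1 and Csf1r were at 0 in every cell. Markers of the proximal tubule, a segment rich in mitochondria, were never above a summed RPKM of 0.273 in any cell.

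Each of the 56 subunit genes was detected in at least 1 cell, whereas 29.2% of all genes and 41.8% of protein-coding genes were. In at least 7 of the 14 cells 43 of the 56 (76.8%) were detected, against 5.93% of all genes and 9.01% of protein-coding genes. At the level of 10, 37 of the 56 (66.1%) reached it in at least 7 cells, against 3.08% of all genes and 4.9% of protein-coding genes. Leaving out GL_M_30 and GL_M_55 left 37 subunits detected in at least 7 cells, and leaving out GL_M_36 and GL_M_47, the cells with the most detected genes, left 33. The bar of 7 was kept with fewer cells, so these counts could only stay or fall. Detection in every single cell was rare even so. Ndufa7 alone was detected in all 14 cells, 1 of 56 genes (1.79%), against 0.454% of all genes and 0.701% of protein-coding genes. It was also the 1 subunit at 10 or more in all 14 cells, against 0.204% of all genes and 0.332% of protein-coding genes. A further 5 subunits missed by 1 cell each. Cox6a1 was missed in GL_M_6, Atp5c1 in GL_M_29, Uqcrb in GL_M_51, Ndufc1 in GL_M_91 and Cox4i1 in GL_M_94, so that leaving out any of these cells gave 2 subunits detected in every remaining cell. Counted as any value above 0, 16 subunits were present in every cell.

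The values of single subunits were mostly either high or near nothing. Of the 784 values of the 56 genes in the 14 cells, 38.5% were at 100 or more, 16.2% between 10 and 100, 9.95% between 1 and 10, 19.3% above 0 but below 1, and 16.1% at 0. Over all genes detected in some cell the same classes held 9.14%, 8.85%, 10.7%, 24.2% and 47.1% of values. A subunit was detected in a median of 10 cells, against 5 cells for the 4455 genes whose mean RPKM lay in the same range as the subunits, 13.8 to 1009. That range is wide, and the genes were not matched to the subunits by level within it. A value of 0 does not by itself show that a transcript was absent from the cell, and missed and absent transcripts were not told apart.

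**Figure D1:**
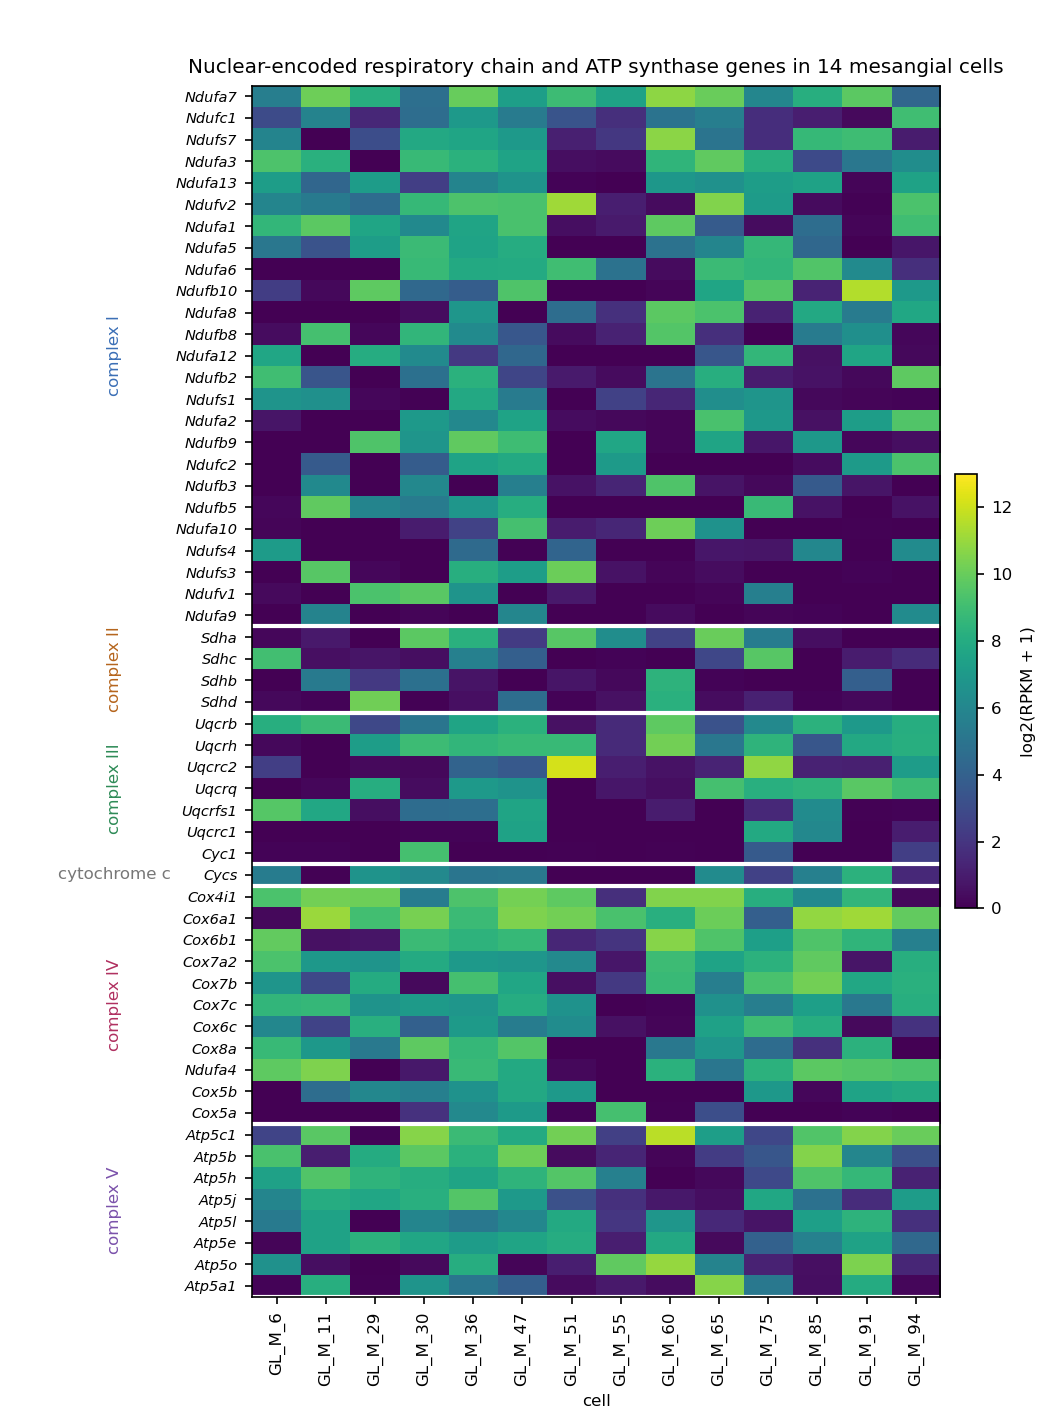
Level of each of the 56 nuclear-encoded subunit genes (rows, grouped by complex) in each of the 14 cells (columns), as colour on the log2(RPKM + 1) scale. Ndufa7 is above an RPKM of 10 in every column, most other rows alternate between high and near-zero values, and GL_M_55 is dark (low) in most rows, with 9 of 56 genes at 10 or more.

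Complex I was covered unevenly, with 59.4% of its values detected and single subunits found in 3 to 14 cells (median 8). Ndufa7, an accessory subunit, ran from 18.6 RPKM in GL_M_94 to 1760 in GL_M_60, with a median of 285. It was at 10 or more in all 14 cells and at 100 or more in 10 of them, and its gene lies on chr17:33824572-33838317 of GRCm38. Its nearest followers were also small accessory subunits. Ndufa3 had a median of 237 RPKM (0 to 908), Ndufa6 one of 157 (0 to 708) and Ndufa1, an X-linked membrane-arm subunit, one of 131 (0.135 to 865). Ndufa3 and Ndufa1 were each at 10 or more in 10 cells and Ndufa6 in 9. The cells without them differed: Ndufa6 was at 0 in GL_M_6, GL_M_11 and GL_M_29, where Ndufa1 stood at 393, 844 and 196.

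The 5 core subunits of complex I in the list were not detected more often than the accessory ones. Ndufv2, an iron-sulfur protein of the NADH-oxidising tip, had a median of 99.3 RPKM (0.0617 to 2253, highest in GL_M_51) and was detected in 11 cells. Ndufs7, which holds the last iron-sulfur cluster before ubiquinone, had a median of 43.6 (0 to 1685, highest in GL_M_60) and was detected in 12 cells. Ndufs1, the largest iron-sulfur subunit, had a median of 3.16 (0 to 227) and was detected in 8. The last pair was sparse. Ndufv1, the flavoprotein that oxidises NADH, was detected in 4 cells, at 822 in GL_M_30, 634 in GL_M_29, 105 in GL_M_36 and 48.1 in GL_M_75, and lay at 0.869 or below in the rest. Ndufs3, a subunit near the ubiquinone site, was detected in 4 cells, at 1090 in GL_M_51, 800 in GL_M_11, 281 in GL_M_36 and 151 in GL_M_47, and lay at 0.566 or below in the rest. GL_M_36 was the only cell with both. Of the sequence of Ndufs3, 39.7% is shared with other annotated genes, the highest share among the 56. Over the core subunits 55.7% of values were detected, against 60.4% over the 20 accessory ones. The mean level of the core minus that of the accessory subunits was −0.24 ± 1.53 on the log2 scale (SD, n = 14 cells), positive in 7 of 14 cells, so it was well within the spread between cells.

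Among the other accessory subunits of complex I, Ndufa9 was found least often, in 3 cells at 55.1 to 76.2 RPKM and at 0.286 or below elsewhere. Ndufs4, whose loss in mice gives a mitochondrial encephalopathy, was detected in 5 cells, at most at 141 RPKM in GL_M_6. Ndufa10 was detected in 5 cells, with 1103 in GL_M_60 and 582 in GL_M_47. Ndufb10, a membrane-arm subunit, had the highest value of complex I, 2949 in GL_M_91, with a median of 16.6. Ndufc1 was detected in 13 cells but mostly at low levels, with a median of 16.9 and a range of 0.249 to 525. Ndufa13, also known as GRIM-19, had a median of 97.7 (0 to 179, highest in GL_M_85) and 10 cells at 10 or more. Ndufb9 was split, at 109 or more in 7 cells and at 0.698 or below in the other 7. The remaining accessory subunits, Ndufa2, Ndufa5, Ndufa8, Ndufa12, Ndufb2, Ndufb3, Ndufb5, Ndufb8 and Ndufc2, were detected in 6 to 10 cells with medians of 0.556 to 33.1.

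Complex II, succinate dehydrogenase, was the least detected of the 5 complexes, with 41.1% of its values detected. Sdha, the flavoprotein that oxidises succinate, was detected in 8 cells, with a median of 4.32 RPKM and its highest value, 1059, in GL_M_65. Sdhb, the iron-sulfur subunit, was detected in 5 cells, with a median of 0.408 and up to 337 in GL_M_60. The membrane anchors were similar. Sdhc was detected in 6 cells, with a median of 0.834 and up to 776 in GL_M_75, and Sdhd in 4 cells, with a median of 0.290 and up to 1155 in GL_M_29. No cell had more than 3 of the 4 subunits detected, and GL_M_85 had 0 of 4. The 4 genes reached their highest values in 4 different cells. The median share of the RPKM total of a cell that the complex took was 0.0784% (7.89e-05% to 0.201%).

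Among the nuclear subunits of complex III, the small ones were detected in more cells than Cyc1 and Uqcrfs1, which carry redox centres. Uqcrh, the hinge protein that binds cytochrome c1, had a median of 257 RPKM (0 to 1210) and reached 10 in 11 cells. Uqcrb had a median of 161 (0.478 to 869) with 10 cells at 10 or more, and Uqcrq one of 113 (0 to 802) with 8 such cells. By contrast the nuclear redox subunits were detected in fewer cells, while the mitochondrially encoded one, mt-Cytb, was detected in all 14. Cyc1, cytochrome c1 itself, was detected in 3 cells, at 566 in GL_M_30, 11.9 in GL_M_75 and 4.37 in GL_M_94, with 0.104 or less elsewhere. Uqcrfs1, the Rieske iron-sulfur protein, was detected in 7 cells, with a median of 1.38 and up to 759 in GL_M_6. The core proteins, which hold the matrix side of the complex, differed from each other. Uqcrc1 was detected in 4 cells, up to 234 in GL_M_75. Uqcrc2 was detected in 10, at 1.14 to 16.9 in 7 of them, but stood at 4644 in GL_M_51, 1808 in GL_M_75 and 146 in GL_M_94, the first of these being the highest value of any of the 56 genes in any cell. Of the Uqcrc2 sequence 24.8% is shared with other annotated genes. GL_M_75 was the only cell with all 7 listed subunits detected. Cycs, the carrier between complexes III and IV, was detected in 10 cells, with a median of 33.7 RPKM and 328 in GL_M_91.

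Complex IV, cytochrome c oxidase, had the largest share of values at 10 or more of the 5 complexes. Of its values 77.9% were detected, 71.4% were at 10 or more and 56.5% at 100 or more. Cox6a1, the ubiquitous form of subunit 6A, had the highest median of all 56 genes, 1008 RPKM, and ran from 0.208 in GL_M_6 to 2305 in GL_M_91. It was at 10 or more in 13 of 14 cells, 92.9%. Cox4i1, a nuclear subunit that contacts mt-Co1, had a median of 651 (0.216 in GL_M_94 to 1499 in GL_M_60) and was at 10 or more in 12 cells. Cox6b1, on the side facing cytochrome c, had a median of 352 and reached 1594 in GL_M_60. Cox7a2 and Cox7c, small membrane subunits, were each at 10 or more in 12 cells, with medians of 153 and 107. Ndufa4, named for complex I although its protein is found in complex IV, had a median of 320, with 10 cells at 33.7 to 1450 and the other 4 at 0.798 or below. Cox7b, Cox8a, Cox5b and Cox6c had medians of 53.2 to 213 and were detected in 9 to 12 cells.

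Cox5a, which binds the matrix side of the complex next to Cox4i1, was the exception. It was detected in 5 cells, with a median of 0.0685 RPKM. Its highest value, 564, was in GL_M_55, where Cox6a1 stood at 616 and the other 9 subunits of complex IV were below 10. Of the Cox5a sequence 10.5% is shared with other genes, and 12.8% of the Cox5a exons overlap another annotated gene. All 11 subunits of complex IV were at 10 or more in GL_M_36 and in GL_M_47, Cox5a included, at 67.3 and 134.

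The 8 listed subunits of ATP synthase were detected about as often as complex IV, with a smaller share of values at 10 or more. Of their values 79.5% were detected and 62.5% were at 10 or more, and 2.68% were at 0, the lowest share of the complexes as listed. Further ATP synthase genes outside the list, detected in 7 (Atp5k) to 12 (Atp5f1) cells, are not part of these shares. In the catalytic F1 head, Atp5c1, the rotating gamma shaft, had a median of 579 RPKM, with 3200 in GL_M_60 and 0.107 in GL_M_29. Its level was split, with 10 cells at 152 or more and the other 4 at 5.86 or below. Atp5b, the catalytic beta subunit, had a median of 35.9 (0.144 to 1536) and was detected in 12 cells. Atp5a1, the alpha subunit that pairs with it in the head, had a median of 7.60 (0.0721 to 1613) and was detected in 7. Atp5e, the small epsilon subunit, had a median of 160 and was at 10 or more in 11 cells.

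The stalk and membrane subunits of ATP synthase were detected at a rate like that of the F1 head, with 78.6% of values detected for the head and 80.4% for the stalk and membrane. Atp5h and Atp5j, parts of the peripheral stalk, had medians of 235 and 93.1 RPKM and were detected in 12 cells each, as was Atp5l, a membrane subunit, with a median of 48.9. Atp5o, which fixes the stalk to the head, had a median of 1.51 and reached 10 in 6 cells, among them 1969 in GL_M_60, 1382 in GL_M_91 and 901 in GL_M_55. Other annotated genes share 34.9% of its sequence, and 47.9% of its exons overlap 3 other annotated genes, a second entry of the same name among them, so its values are uncertain. The mean level of the F1 head minus that of the stalk and membrane subunits was 0.38 ± 1.93 on the log2 scale (SD, n = 14 cells), positive in 10 of 14. All 8 listed subunits were at 10 or more in GL_M_36 alone.

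**Figure D2:**
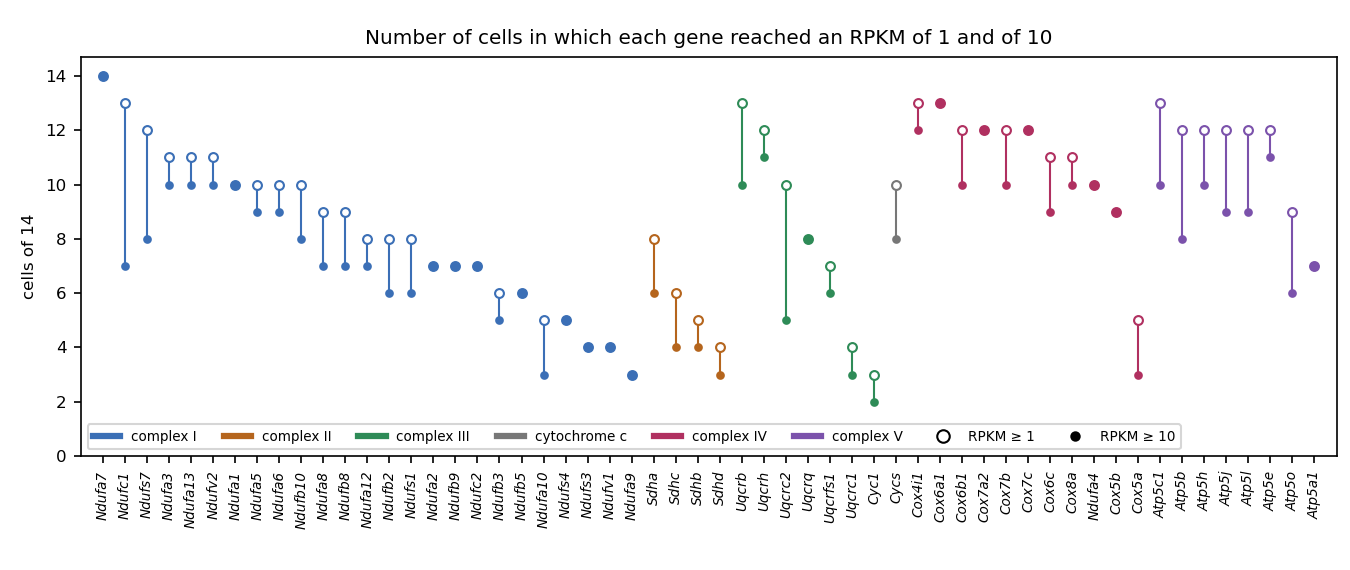
Number of the 14 cells in which each of the 56 genes reached an RPKM of at least 1 and of at least 10 (vertical axis, cells; open and filled points), with genes along the horizontal axis grouped by complex. Complexes IV and V reach 12 or 13 cells for most of their genes, while Cyc1 and Ndufa9 were detected in 3 cells and Sdhd, Uqcrc1, Ndufv1 and Ndufs3 in 4.

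Set against each other within each cell, the nuclear subunits of complex IV had a higher mean level than those of complex I in 14 of 14 cells. The mean level was 5.93 ± 1.42 for complex IV and 4.02 ± 1.32 for complex I on the log2 scale (SD, n = 14 cells), and the difference within a cell was 1.91 ± 0.85, from 0.61 in GL_M_55 to 3.44 in GL_M_85, and without GL_M_85, the cell with Fcer1g, its mean was 1.79; the part of that marker in the difference was not tested. Complex IV was above complex III, at 3.77 ± 1.58, in 13 of 14 cells, by 2.16 ± 1.18, with GL_M_75 the exception at −0.17. It was above complex II, at 2.58 ± 1.38, in 14 of 14 cells, by 3.35 ± 1.82. Without GL_M_30 and GL_M_55, complex IV was above complex I in 12 of 12 remaining cells by a mean of 2.12, and with Ndufa4 counted in complex I, by a mean of 1.78 in 14 of 14 cells. Compared as mean RPKM per subunit, complex IV was above complex I in 14 cells, above complex II in 13 and above complex III in 12.

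ATP synthase, at 5.27 ± 1.58, had a higher mean level than complex I in 11 of 14 cells, by 1.26 ± 1.61. It was above complex II in 13, by 2.69 ± 2.15, and above complex III in 12, by 1.50 ± 1.97. The mean differences from complexes I and III were smaller than their SD over cells. Compared as mean RPKM per subunit, complex V was above complex I in 11 cells and above complexes II and III in 10 each. Complex V minus complex IV was −0.65 ± 1.51, with complex V higher in 5 of 14 cells, which does not separate these complexes beyond the spread between cells. With reads scaled to depth but not divided by gene length, the direction turned, to 0.30 with complex V higher in 8 cells. Complexes III and I were not separated, with a difference of −0.25 ± 1.40 and complex III higher in 5 cells. Complex II minus complex I was −1.44 ± 1.51, with complex II higher in 4 cells. The median exon length was 1214 bases for complex IV, 1718 for complex I, 1831 for complex III, 2551 for complex V and 2744.5 for complex II.

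**Figure D3:**
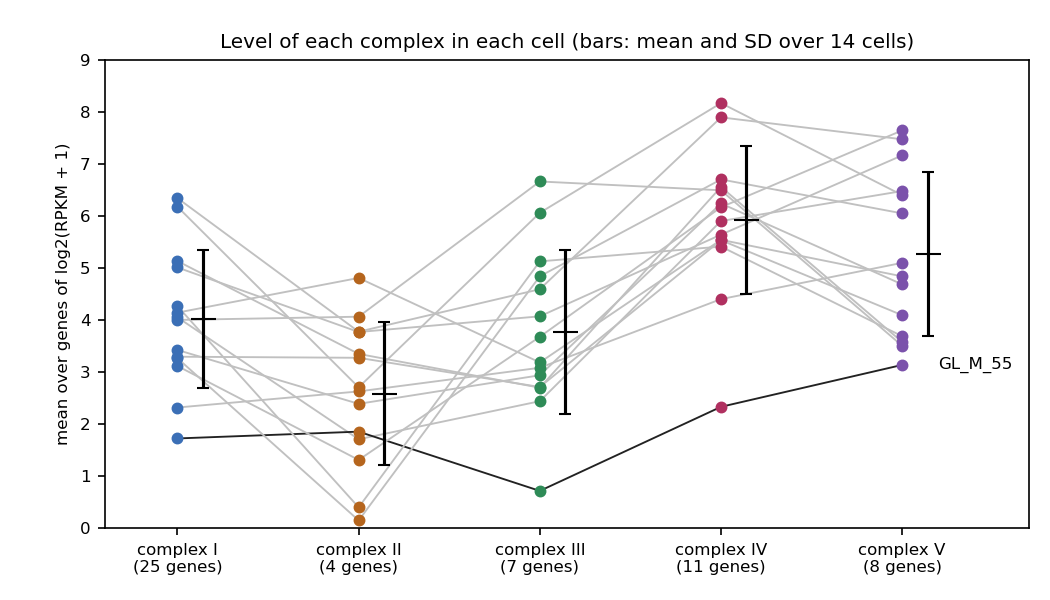
Mean log2(RPKM + 1) over the nuclear subunits of each complex in each of the 14 cells (points, 1 line per cell), with GL_M_55 drawn as a black line and bars for the mean and SD over cells. Complex IV lies above complex I in all 14 cells, and GL_M_55 has the lowest mean of its line at complex III, 0.71.

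The sums of nuclear subunits also differed between cells. They took a median of 2.14% of the RPKM total of a cell, from 0.527% in GL_M_55 and 1.51% in GL_M_29 to 3.36% in GL_M_60. By number, 24 (GL_M_51) to 50 of the 56 genes were detected, with 50 in both GL_M_36 and GL_M_47. These cells also had the most detected genes of any kind, 5277 and 4842. Over the 14 cells the number of subunits detected followed the number of all genes detected, with a Pearson r of 0.900 and a Spearman rho of 0.885, and without GL_M_36 and GL_M_47 with 0.795 and 0.820. Both counts come from the same libraries, so this is a description. The read total did not order the cells this way (r = −0.260, rho = −0.159, and without GL_M_36 and GL_M_47 r = −0.488, rho = −0.389), and GL_M_60, the cell with the most reads and the largest subunit share, had 29 subunits detected.

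GL_M_55 had a pattern of its own. It had 28 subunits detected, inside the range of the other cells, but 9 reached an RPKM of 10, against 19 to 48 in the other cells. That was 16.1% of the subunits, and GL_M_55 was also the cell with the smallest share of the protein-coding genes detected somewhere at this level, 13.4%, against 13.6% to 35.5% in the other cells. The level between 1 and 10 held 19 of its subunits, 33.9%, against 2 to 10 subunits in the other cells, while 10.2% of the protein-coding genes detected somewhere were at this level in it, within the range over the cells of 4.47% to 17.9%. The 9 high ones were Ndufa6, Ndufa7, Ndufb9, Ndufc2, Sdha, Cox5a, Cox6a1, Atp5o and Atp5h. GL_M_55 is the cell with 5 podocyte markers, and the part of those markers in its low subunit level was not tested. Without it, the median number of subunits detected was 36 in place of 35 and the lowest number at 10 or more was 19.

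The nuclear subunits and the 13 subunits encoded in the mitochondrial genome were not ordered alike over the cells. The nuclear genes took 0.527% of the RPKM total in GL_M_55, against 3.02% for the mitochondrially encoded ones, a ratio of 0.17. In GL_M_91 the nuclear genes took 2.58% and the mitochondrially encoded ones 0.410%, a ratio of 6.31. The other 12 cells lay between 0.54 and 1.74, and the median over all cells was 1.01. Over the 14 cells the shares had a Pearson r of −0.357 and a Spearman rho of −0.275. The mitochondrial sum rests on a few genes. Cytochrome b (mt-Cytb) had a median of 4144 RPKM, mt-Atp8 one of 2817, mt-Nd1 one of 1646 and mt-Co1 one of 1071. In contrast mt-Co2 and mt-Co3, the other core subunits of complex IV, were at 0 to 1.29 and 0.469 to 3.70 RPKM, and 100% and 99.9% of their sequence is shared with other annotated genes. Low values also went with shared sequence in mt-Nd4l, at 0 in 13 cells with 98.8% shared, mt-Nd3, with a median of 7.37 and nearly all of its sequence shared, and mt-Atp6, with a median of 27.8 and 99.5% shared, so 5 of the 13 genes in the sum and the ratios are of this kind. Partly shared sequence did not go with low values in mt-Nd4, 62.2% shared with a median of 534, or in mt-Co1, 51.1% shared. How the authors counted reads with several matches is not stated, and its part in the low values of those 5 genes was not tested. Among the 56 nuclear genes the largest shared part was 39.7%.

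**Figure D4:**
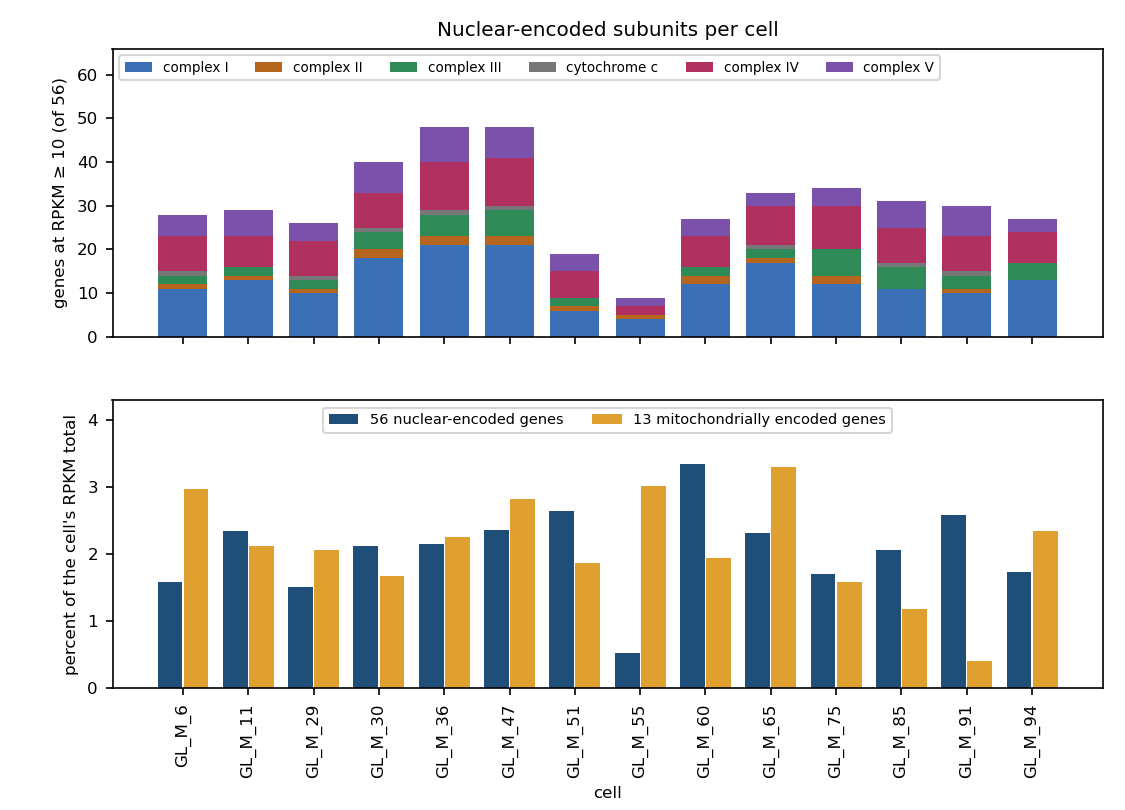
For each of the 14 cells, the number of the 56 nuclear subunit genes at an RPKM of at least 10, stacked by complex (top), and the percent of the RPKM total taken by nuclear (left bar) and mitochondrially encoded (right bar) subunits (bottom). GL_M_36 and GL_M_47 have 48 genes each and GL_M_55 has 9, and the nuclear bar is far above the mitochondrial one in GL_M_91, 2.58% and 0.410%.

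Several nuclear subunits have a second or related gene, and most of those with a tissue-restricted pattern were not detected here. The forms of muscle, heart, testis or lung, Cox6a2, Cox7a1, Cox7b2, Cox8b, Cox8c and Cyct, were listed at 0 in each of the 14 cells. This does not by itself show that they were absent. Cox6b2 reached 0.206 RPKM at most. Cox4i2, the form of lung and of cells that sense oxygen, was above 1 in GL_M_65 alone, at 9.06, and so at 10 or more in 0 cells, against 12 cells for Cox4i1. The related genes Ndufa4l2 and Cox7a2l were detected in most cells. Ndufa4l2, a relative of Ndufa4 known as a target of the hypoxia-inducible factor, reached 10 in 10 cells, with a median of 87.3 RPKM and its highest value, 536, in GL_M_29. Ndufa4 reached the same level in 10 cells, with a median of 320. Both were at that level in 7 cells, each without the other in 3, and neither in 1, with Ndufa4l2 the higher in 5 of 14 cells. The cells with Ndufa4l2 but not Ndufa4 were GL_M_29, GL_M_30 and GL_M_51, and those with Ndufa4 but not Ndufa4l2 were GL_M_60, GL_M_85 and GL_M_91. Cox7a2l reached 10 in 10 cells, with a median of 188 and 1401 in GL_M_51, against 12 cells and a median of 153 for Cox7a2. Cox7a2l was the higher in 7 of 14 cells. Other genes share 17.7% of the Cox7a2l sequence.

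**Figure D5:**
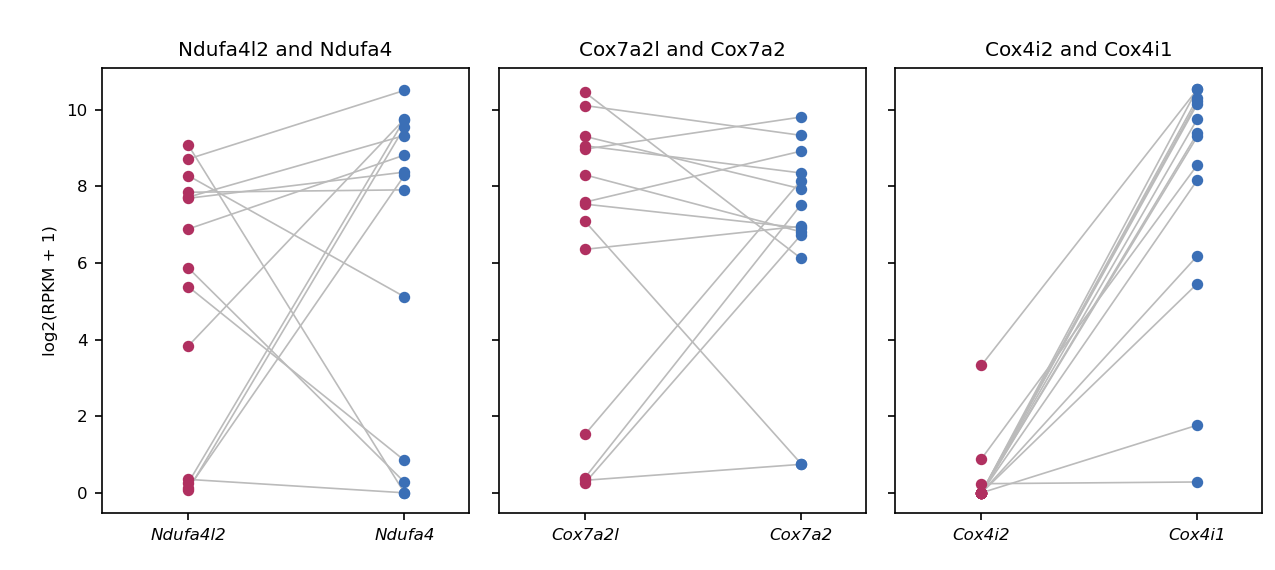
Level on the log2(RPKM + 1) scale (vertical axis) of Ndufa4l2 beside Ndufa4, Cox7a2l beside Cox7a2 and Cox4i2 beside Cox4i1, with 1 point per cell and a line joining the values of a cell. Ndufa4l2 and Ndufa4 are both at 10 or more in 7 cells, while Cox4i2 stays below 10 in every cell and Cox4i1 is above it in 12.

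The rest of the pathway was read from lists written with earlier results of these cells known. Of the values of the 56 subunits 64.7% were detected, against 62.3% for 22 other nuclear subunits, of which 17 were detected in at least 7 cells. Among them Uqcr11, a small complex III subunit, had the highest median, 206 RPKM, and was at 10 or more in 11 cells. Of the genes for the c ring of ATP synthase, which encode the same mature protein, Atp5g3 had a median of 155, Atp5g2 of 8.11 and Atp5g1 of 2.64. Ndufa11, Ndufb4, Ndufb7 and Ndufs6 were detected in 5 cells each, and Ndufab1, Ndufb6, Ndufb11, Ndufs5, Ndufs8, Ndufv3, Uqcr10, Atp5d, Atp5f1, Atp5j2, Atp5k, Atpif1 and Usmg5, in 7 to 13.

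Assembly factors, which build the complexes but are not part of them, were detected less often than the subunits. In at least 7 cells 43 of 56 subunits were detected, against 4 of 46 assembly factors, a share near the 9.01% of all protein-coding genes, and 64.7% of the values of the subunits were, against 21.1% of those of the assembly factors. Of the factors 9 were at 0 in every cell. The highest were Coa3, which stabilises newly made mt-Co1, with a median of 25.1 RPKM, Timmdc1 with 16.4, Acad9 with 10.7 and Cox17, a copper chaperone for complex IV, with 5.07. The 14 regulators of mitochondrial gene expression were lower still. None was detected in at least 7 cells, against 9.01% of all protein-coding genes, and with 14 genes a count of 0 is near that share. In all 14 cells 1 regulator was at 0, and 9.69% of the values of the regulators were detected. Nrf1, a transcription factor that binds the promoters of many respiratory genes, was detected in 4 cells and reached 23.7 RPKM in GL_M_6. Tfam, which packages and transcribes mitochondrial DNA, was detected in 3 cells, up to 507 in GL_M_11, the polymerase Polrmt in 4 and the DNA polymerase Polg in 2. At these depths a value of 0 in a cell does not show that such a gene was silent there.

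Promoters of the 56 genes were read for short motifs of factors known from respiratory genes, with letters chosen after the promoter table was seen. Windows from 250 bases before to 50 after the start were given for 45 of the 56 genes by RefSeq on GRCm38.p6, and the same windows for 27025 genes served as the background. The NRF1 letters GCGCATGC, on either strand, were in 7 of 45 (15.6%), against 3.05% of all genes. The ETS letters CCGGAAG, bound by the factor GABP among others, were in 11 (24.4%), against 9.93%, and the YY1 letters AAGATGGC were in 7 (15.6%), against 3.19%. General promoter letters were closer to the background, with CCAAT in 40.0%, against 41.1%, GGGCGG in 44.4%, against 38.2%, and TATAAA in 8.89%, against 15.7%. The 7 genes with the NRF1 letters were Ndufa6, Ndufa8, Sdhb, Uqcrc1, Cycs, Cox6a1 and Atp5l. They were detected in 4 to 13 cells with a median of 10, against 3 to 14 cells with a median of 10 for the 38 without. For the ETS letters the medians were 12 cells with and 9.5 without, for the YY1 letters 11 and 10, and for CCAAT 11.5 and 9. The ranges of the genes with and without the letters overlapped for each of these motifs.

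The 4 windows below are shown as examples of different detection: the gene found in every cell, the one with the highest median, the electron carrier, and a gene found in 5 cells. Each is 300 bases long, 5′ to 3′ on the strand of the gene, and capitals mark matches to the NRF1, ETS or YY1 letters on either strand.
Ndufa7, chr17:33824322-33824621, plus strand: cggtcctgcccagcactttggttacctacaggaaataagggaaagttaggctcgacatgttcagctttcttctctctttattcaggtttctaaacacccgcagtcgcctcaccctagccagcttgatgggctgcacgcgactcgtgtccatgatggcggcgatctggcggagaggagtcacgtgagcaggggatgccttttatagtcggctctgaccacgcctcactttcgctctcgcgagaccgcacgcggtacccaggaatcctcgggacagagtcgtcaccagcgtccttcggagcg
Cox6a1, chr5:115348909-115349208, minus strand: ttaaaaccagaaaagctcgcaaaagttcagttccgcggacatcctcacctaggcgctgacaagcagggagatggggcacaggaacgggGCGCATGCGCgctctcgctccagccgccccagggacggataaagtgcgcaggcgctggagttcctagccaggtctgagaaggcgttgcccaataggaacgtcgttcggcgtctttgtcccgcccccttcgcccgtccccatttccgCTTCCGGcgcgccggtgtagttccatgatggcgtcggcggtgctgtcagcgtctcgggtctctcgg
Cycs, chr6:50566520-50566819, minus strand: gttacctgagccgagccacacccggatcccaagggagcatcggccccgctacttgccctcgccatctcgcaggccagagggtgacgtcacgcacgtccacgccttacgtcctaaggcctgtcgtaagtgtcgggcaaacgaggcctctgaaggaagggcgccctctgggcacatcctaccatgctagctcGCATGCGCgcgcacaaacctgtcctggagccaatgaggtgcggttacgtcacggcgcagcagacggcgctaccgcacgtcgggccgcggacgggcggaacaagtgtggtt
Sdhb, chr4:140961021-140961320, plus strand: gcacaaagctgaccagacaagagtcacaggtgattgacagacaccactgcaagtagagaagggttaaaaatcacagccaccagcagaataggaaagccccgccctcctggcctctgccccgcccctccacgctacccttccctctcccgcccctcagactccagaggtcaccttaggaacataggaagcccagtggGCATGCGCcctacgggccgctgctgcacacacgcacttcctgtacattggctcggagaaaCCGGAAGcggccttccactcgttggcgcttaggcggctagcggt
The window of Ndufa7 held 0 of these matches. RefSeq lists 2 windows for Ndufa7, of which the one nearest the annotated start is shown, and the other held none of these letters either. That of Cox6a1 held 3, a pair of overlapping NRF1 matches on opposite strands and an ETS match, Cycs held 1 NRF1 match, and Sdhb held an NRF1 and an ETS match. A match is a run of letters and was not tested as a binding site.

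The subunits had a larger median SD between cells than all genes in their wide range of mean RPKM. The SD of the subunits over the 14 cells on the log2 scale had a median of 3.50 (2.14 to 4.31). It was 2.88 for the 4455 genes in that range and 2.30 for the 7976 genes with a mean of at least 1. Genes were not matched by level within the range, so the part of level in this difference was not tested. Ndufa7 was the steadiest, at 2.14, and Atp5o the most variable, at 4.31. By the median, subunits of 1 complex were hardly more correlated than subunits of different complexes, and the part of missed transcripts in these low values was not tested. The Pearson r over 14 cells had a median of 0.10 over 410 pairs within a complex and of 0.09 over 1130 pairs between complexes, with −0.14 within complex II. Without GL_M_55 these medians were 0.0562 and 0.0552, and without GL_M_36 and GL_M_47 they were 0.0411 and 0.0440. The highest r was between complexes, 0.89 for Uqcrb and Ndufa4, which were both at 10 or more in 9 of the 11 cells where either was, and the lowest was −0.82 for Sdhc and Cox6a1. All pairs share the same 14 libraries and their depth, and with sparse values these are descriptions only.

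Subunits detected in more cells had shorter transcripts and, by the median, more shared sequence. The 17 subunits detected in 12 or more cells had a median of 857 transcript bases, the 26 in 7 to 11 cells 1241.5 and the 13 in 6 or fewer 1698. The shares of their sequence found in other annotated genes as exact stretches of 50 bases had medians of 3.97%, 0% and 0%. Across the 56, 26 had no such stretch and 17 matched a pseudogene. The part of length and shared sequence in the differences between subunits and complexes was not tested.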

How the data were processed

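The authors deposited one table of RPKM values per Ensembl gene for the 14 cells, and the values are used as deposited. The submitters' processing notes name TopHat2 2.0.12, HTSeq 0.6.1 and the genome build mm10. Not given in the sources used here are the annotation, the read length, how reads with several matches were counted and how cells were filtered. Per the labels' protocols, cDNA was made on the Fluidigm C1, and molecular identifiers are not mentioned there. Of the 35271 genes, 34488 matched GENCODE M21 on GRCm38, which gave symbols, coordinates and exon lengths.

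Read totals were recovered from RPKM steps at genes with 1 transcript. Of the values below 50 reads, 84.7% to 89.7% came out whole within 0.02 reads, and the method was tested on simulated data. Levels are on the scale log2(RPKM + 1), that is with a pseudocount of 1 added to the deposited RPKM. Cells of 1 mouse are not replicates, so no p-value or standard error was computed and only counts, medians, ranges and SDs over cells are given. Floors cover counting error only. Correlations are descriptions. Shared sequence was counted as exact stretches of 50 bases in transcripts of other genes.

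The subunits and all lists were chosen with earlier results of these data known, and patterns already seen are not independent support. The rule for named genes took all subunits, the second forms and other subunits, and the 4 highest of each other list; other names were chosen after their values were seen. Some listed genes are not reported here. The alternatives left out cells and changed the detection level, the pseudocount, the scaling, the filter and the place of Ndufa4, and some were added after seeing the data. Python 3.11.15, numpy 2.4.6, pandas 2.3.3, scipy 1.17.1 and matplotlib 3.10.9 were used.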

Additional observations from a re-analysis of the deposited data

How the results depend on the processing

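A value was counted as kept when it moved by at most 1 SD over cells, and a count or a median r when it moved by at most a factor of 1.5. Leaving out each cell in turn moved 3 of the 34 results past these limits. Leaving out a single cell cannot move a mean over cells by 1 SD. For mean differences and detection shares, staying within the limit was thus fixed in advance and is no support. For complex V minus complex IV (−0.65 ± 1.51) and complex V minus complex I (1.26 ± 1.61), the limit was also larger than the difference. The number of subunits detected in every cell ran from 1 to 2, with 2 when GL_M_6, GL_M_29, GL_M_51, GL_M_91 or GL_M_94 was left out. The median r ran from 0.0562 to 0.115 within a complex and from 0.0552 to 0.119 between complexes, lowest without GL_M_55. Subunits detected in at least 7 cells, a bar kept with fewer cells, ran from 38 to 43. Without GL_M_36 and GL_M_47 the median r was 0.0411 within and 0.0440 between complexes. Counting any value above 0 as detected gave 16 subunits in every cell, a median of 48 per cell, and 79.4%, 78.6% and 97.3% of values for complexes I, II and V. At an RPKM of at least 10, complex V had 62.5% of values. A pseudocount of 0.1 gave a median SD of the subunits of 4.41. With reads scaled to depth but not divided by gene length, an alternative added after seeing the data, complex V minus complex IV became 0.30 on the log2 scale, with complex V higher in 8 cells. Of the other values under these settings, 173 stayed within the limits. No paired analysis was possible because all cells form 1 group. With 1 mouse, spread between animals cannot be seen, and a subunit listed at 0 may be a missed transcript.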

Other observations

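Around the respiratory complexes, the carriers that exchange their substrates were detected in most cells. Slc25a5, which exchanges ADP for ATP across the inner membrane, was at 10 RPKM or more in 12 of 14 cells, with a median of 268 and a range of 0.125 to 2507, highest in GL_M_91. GL_M_55, low in the subunits, had 1981 of it. Slc25a4, the second ADP/ATP carrier, had a median of 11.9 (0 to 620) and was at 10 or more in 8 cells. Slc25a3, the phosphate carrier, had a median of 57.4 (0.113 to 951) and was at 10 or more in 9. Hspe1, a cochaperone of the mitochondrial matrix, had a median of 34.7 and was at 10 or more in 7 cells. Of the values of the 56 subunits 64.7% were detected, against 42.9% for all 18 genes of mitochondrial membranes, carriers and import, of which 7 were detected in at least 7 cells.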
